A study of Mus musculus with 18 samples.

Results

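The levels of 8 genes of the enteric nervous system were followed across all 18 RNA-seq libraries of the series. The members were matched by gene symbol in the count table and made up 8 of its 36757 genes. They were Sox10, S100b and Gfap for enteric glia, Elavl4 and Uchl1 for neurons in general, the receptor gene Ret, and the transmitter genes Vip and Nos1. C57BL/6 mice aged 6 to 8 weeks of genotype RNF138fl/fl (wild type in the sample labels) or RNF138-/- had gone through 1 of 2 colon models. In the chronic colitis model, mice drank 2% dextran sulfate sodium (DSS) for 7 days and plain water for 14 days in repeated cycles, and were killed 4 weeks after the last cycle. In the colitis-associated cancer (CAC) model, a single injection of azoxymethane (AOM) at 10 mg/kg preceded the DSS cycles by 4 days. The third material was organoids grown in matrigel from tumor-bearing gut fragments of the CAC model. Each of the 6 groups held 3 libraries. The labels do not say whether the libraries of a group came from separate animals, so p-values measure only the spread between these libraries.

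The enteric nervous system lies in 2 plexuses of the gut wall, 1 between the muscle layers and 1 in the submucosa, and its glia and neurons arise from neural crest cells. Glia express the transcription factor SOX10, the calcium-binding protein S100B and, in part, the filament protein GFAP, while neurons carry RNA-binding ELAV proteins and the ubiquitin hydrolase UCHL1. RET, the receptor for GDNF, drives the colonisation of the gut by these precursors, and VIP and nitric oxide, the product of neuronal nitric oxide synthase (NOS1), are the main signals by which enteric neurons relax gut muscle. Bulk RNA cannot tell fewer cells of a type from less RNA per cell.

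Promoter sequences were available for 6 of the 8 members in RefSeq (GRCm38.p6), all but Sox10 and Ret, and those of 3 members that differed between genotypes in the CAC model are shown as a description of these genes. No relation of the promoter letters to a level was tested. Each runs from 250 bases before to 50 bases after the annotated start, in the direction of the gene. Capitals mark TATAAA or TGACG on either strand, the latter reading CGTCA where it lies on the opposite strand. The windows are chr10:5638968-5639267 (plus strand) for Vip, chr5:117866589-117866888 (plus strand) for Nos1 and chr4:110351862-110352161 (minus strand) for Elavl4.
Vip: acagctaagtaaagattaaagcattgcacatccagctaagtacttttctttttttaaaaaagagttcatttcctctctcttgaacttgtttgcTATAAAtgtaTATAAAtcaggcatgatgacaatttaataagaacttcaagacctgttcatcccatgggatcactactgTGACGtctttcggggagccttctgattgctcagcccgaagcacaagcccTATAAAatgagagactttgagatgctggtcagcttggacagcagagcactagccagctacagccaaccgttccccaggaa
Nos1: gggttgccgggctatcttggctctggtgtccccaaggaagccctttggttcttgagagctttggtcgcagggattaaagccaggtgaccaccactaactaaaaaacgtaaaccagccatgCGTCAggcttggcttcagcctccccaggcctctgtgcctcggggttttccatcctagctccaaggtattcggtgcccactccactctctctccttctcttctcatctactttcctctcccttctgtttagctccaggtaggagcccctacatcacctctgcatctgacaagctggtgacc
Elavl4: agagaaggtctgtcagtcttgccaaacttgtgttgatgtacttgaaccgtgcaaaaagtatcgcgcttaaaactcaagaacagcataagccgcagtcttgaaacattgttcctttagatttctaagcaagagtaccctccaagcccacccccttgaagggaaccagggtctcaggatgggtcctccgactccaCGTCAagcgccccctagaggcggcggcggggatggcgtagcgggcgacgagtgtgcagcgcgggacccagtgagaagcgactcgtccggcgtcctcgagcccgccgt
TATAAA, the letters of a TATA box, stood in the Vip window only among the 9 windows of these 6 genes, at 157, 147 and 30 bases before the start, and occurred in 13.6% of all 32851 promoters on either strand. TGACG, the half-site of the cAMP response element, stood in the Vip, Nos1 and Elavl4 windows, 79, 130 and 57 bases before the start, and in 20.8% of all promoters. The whole element TGACGTCA, which contains the half-site and was found in 1.79% of all promoters, was in none of the 9 windows, and neither were GGGCGG (35.7%) or ACAAAG (18.7%), the letters of a GC box and of a SOX motif. The Nos1 window belongs to a start site inside the gene, and Elavl4 had 4 windows, of which that at the most upstream start is printed.

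In the mm10 build, with GENCODE M21 as the annotation, all 8 members are protein-coding. Sox10 lies at chr15:79154908-79165240 (minus strand), S100b at chr10:76253853-76261159 (plus), Gfap at chr11:102887336-102900912 (minus) and Elavl4 at chr4:110203722-110351909 (minus). Uchl1 lies at chr5:66676091-66687234 (plus), Ret at chr6:118151745-118197718 (minus), Vip at chr10:5639218-5647617 (plus) and Nos1 at chr5:117781032-117958840 (plus). The counts of a gene sum over its exons, UTRs included.

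Total counts ran from 11514716 to 24390082 per library, with a median of 17332367. Levels are given on the counts-per-million scale (CPM), normalised over all 18 libraries. The targeted gene was not called lower in the libraries labelled RNF138-/- of any model. Rnf138 stood at 15.6, 17.95 and 25.1 CPM in RNF138fl/fl colitis and at 19.4, 17.97 and 19.1 CPM in colitis libraries labelled RNF138-/-, at 27.5, 27.2 and 21.5 against 39.6, 45.3 and 45.7 CPM in CAC, and at 37.7, 53.4 and 55.6 against 50.2, 47.8 and 42.8 CPM in organoids. The CAC difference in Rnf138 was 0.72 on the log2 scale (adjusted p = 0.0426), under the 2-fold limit. In colitis it was -0.06 and in organoids -0.10. A count over the whole gene does not show whether an exon is missing, so the mutant groups are named below as libraries labelled RNF138-/-. Markers of other cells also differed between groups. The summed level of 12 smooth muscle genes ran from 6341 to 17143 CPM in the 6 colitis libraries, and was 3000, 4181 and 9910 CPM in RNF138fl/fl CAC but 181 to 346 CPM in CAC labelled RNF138-/-. The third RNF138fl/fl CAC library stood apart with the highest muscle sum. The 8 fibroblast genes summed to 9304 to 23655 CPM in RNF138fl/fl organoids and to 41289 to 50769 CPM in those labelled RNF138-/-, against 972 to 1797 CPM in the tissues. The 4 Y-linked genes were at 0 counts in all RNF138fl/fl organoid libraries and not in the others, so sex and genotype cannot be told apart in the organoids.

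In RNF138fl/fl colitis all 8 genes were read in every library. Compared per kilobase of exon, so that genes of different length can be set side by side, Uchl1 was the most abundant member with a level of 11.8 ± 1.64 CPM per kb (SD, n = 3), followed by Vip at 9.42 ± 1.72. The others lay between 2.65 ± 0.456 CPM per kb for Ret and 0.882 ± 0.331 CPM per kb for Elavl4. In CAC labelled RNF138-/- the order was another one. Ret was the most abundant member with a level of 4.14 ± 2.55 CPM per kb, Uchl1 came next at 1.78 ± 1.05, and the other 6 members lay between 0.0312 ± 0.0191 for Sox10 and 0.218 ± 0.0967 for S100b. In both organoid groups Uchl1 and Ret led the order, at 10.6 ± 1.22 and 1.14 ± 0.411 CPM per kb in RNF138fl/fl and at 3.59 ± 0.555 and 2.05 ± 0.415 CPM per kb in those labelled RNF138-/-.

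**Figure D1:**
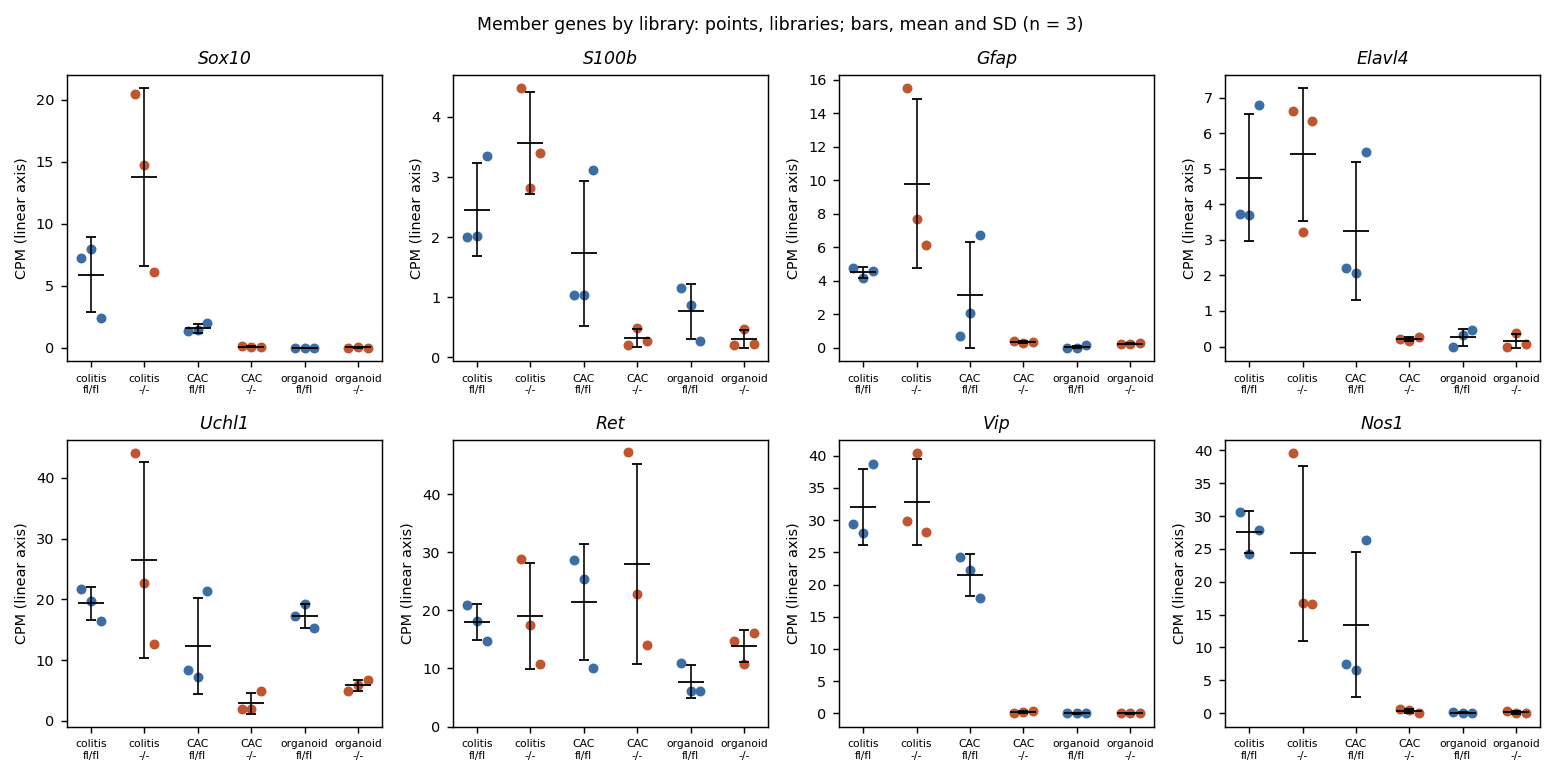
Level of each of the 8 genes in CPM (linear axis, 1 panel per gene) in the 18 libraries; points are libraries, black lines and bars the group mean and SD (n = 3). Vip stood between 17.97 and 24.2 CPM in RNF138fl/fl CAC and between 0 and 0.362 CPM in CAC labelled RNF138-/-, while the Ret libraries of these groups overlapped.

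The first question was whether the genotype changed these genes in chronic colitis. None of the 8 members passed the test there (edgeR quasi-likelihood, Benjamini-Hochberg adjusted over all 16623 genes tested, with at least a 2-fold difference), and 1, Gfap, did so before adjustment. DESeq2 also called 0, with 2 before adjustment. Without the first colitis library labelled RNF138-/- the count before adjustment was 0. Of all genes tested, 0.018% were called higher and 0.0722% lower in libraries labelled RNF138-/-, so that few calls were made on any gene.

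Among the glial genes, Gfap, an intermediate filament of glia, stood at 4.74, 4.15 and 4.58 CPM in RNF138fl/fl colitis and at 15.5, 7.67 and 6.13 CPM in colitis labelled RNF138-/-. The groups did not overlap, as was the case in that direction for 8.86% of all genes tested, and the log2 difference of 1.12 (SE 0.36) had an adjusted p of 0.340. Sox10, a transcription factor of neural crest and glia, was at 7.26, 7.97 and 2.41 CPM in RNF138fl/fl and at 20.4, 14.7 and 6.13 CPM in the mutant-labelled libraries. The lowest of the latter lay under the highest 2 of the former, and the log2 difference was 1.22 (SE 0.54, adjusted p = 0.485). S100b, a calcium-binding protein of glia, was at 2.01, 2.02 and 3.34 CPM against 4.48, 2.82 and 3.40 CPM, with overlapping groups and a log2 difference of 0.54 (SE 0.34, adjusted p = 0.653). The labels do not say that libraries of the same number belong together. Some differently numbered colitis libraries deviated together as closely (r up to 0.274, against 0.108 to 0.521 for same-numbered ones). Between libraries of the same number, each of these 3 genes was higher in the mutant-labelled library in 3 of 3 pairs. With the pairs as a block, the adjusted p was 0.0800 for Sox10, 0.187 for Gfap and 0.475 for S100b (range over all alternatives 0.0800 to 0.902, 0.108 to 0.858 and 0.443 to 0.984), so none was called either way.

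The neuronal and transmitter genes lay closer together in colitis. Elavl4, an RNA-binding protein of neurons, was at 3.74, 3.70 and 6.81 CPM in RNF138fl/fl and at 6.64, 3.24 and 6.34 CPM in libraries labelled RNF138-/-. Uchl1, a ubiquitin hydrolase abundant in neurons, was at 21.8, 19.7 and 16.5 against 44.1, 22.7 and 12.6 CPM, and Ret at 20.9, 18.2 and 14.7 against 28.9, 17.4 and 10.8 CPM. In both, the first library labelled RNF138-/- was the highest of the 6 and the third the lowest. Vip, the precursor of vasoactive intestinal peptide, was at 29.4, 28.0 and 38.7 against 29.9, 40.4 and 28.2 CPM, and Nos1 at 30.7, 24.2 and 27.9 against 39.6, 16.7 and 16.6 CPM. The groups overlapped for all 5 genes, whose log2 differences ran from -0.19 (Nos1) to 0.45 (Uchl1), with adjusted p-values of 0.771 or more. The 95% interval of the Vip difference, -0.47 to 0.54, was the narrowest of the 8, and that of Sox10 the widest, at -0.02 to 2.45. Smooth muscle markers moved along: the first library labelled RNF138-/-, the highest of its group for all members but Vip, also had the highest muscle sum of all libraries, 17143 CPM. Some other markers differed too. The 4 genes of interstitial cells of Cajal summed to 501 to 574 CPM in RNF138fl/fl colitis and 257 to 356 CPM in colitis labelled RNF138-/-. The adipocyte sums were 1.91 to 4.47 against 10.3 to 70.5 CPM. Lymphoid, fibroblast, myeloid and enteroendocrine sums overlapped, although 4 of 7 lymphoid genes lay higher without overlap. None of these genes was called. The part of muscle and of these other cells in the member levels was not tested.

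Other genes of the same system showed the same lack of calls in colitis. Of the other glial genes 13 of 15 were tested, of the other neuronal genes 22 of 24, of the other transmitter and neuropeptide genes 18 of 24, of the genes of GDNF and endothelin signalling 9 of 10, and of those that respond to VIP and nitric oxide 8 of 8. The edgeR test called 0 in each list. An unadjusted p under 0.05, at any fold, was found for 3 higher and 1 lower glial genes, 0 neuronal genes, 5 higher and 1 lower transmitter genes, 3 higher genes of the GDNF list and 4 higher genes of the response list. Of all genes tested, 6.08% were higher and 4.33% lower on the same terms. Median log2 differences of the lists were 0.57, 0.22, 0.23, 0.86 and 0.39 in that order, beside 0.32 for the 8 members and 0.02 for all genes tested.

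In the CAC model the same comparison gave another picture. The fit called 4 of the 8 members, Vip, Nos1, Sox10 and Elavl4, and each fell in libraries labelled RNF138-/-. Of all 17752 genes tested, 4.83% were called lower and 0.546% higher. In 7 of the 8 members, all but Ret, every library labelled RNF138-/- lay below every RNF138fl/fl library, which held for 20.8% of all genes tested, and the exact two-sided permutation test gave p = 0.1 for each of the 7, the smallest value that 3 against 3 libraries allow. The median log2 difference was -3.57 over the members and 0.01 over all genes. All 8 members entered the test, but 6 of them passed the filter on low counts only through the RNF138fl/fl group, and Uchl1 and Ret through both.

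Vip showed the widest separation. It stood at 24.2, 22.3 and 17.97 CPM in RNF138fl/fl CAC and at 0, 0.202 and 0.362 CPM in CAC labelled RNF138-/-, that is 1058 counts in 3 libraries against 13. Scaled to depth, the summed counts were 111-fold lower (95% counting interval 64.7 to 209), and the fitted log2 difference was -6.79 (SE 0.67, adjusted p = 0.0171), or -7.53 (adjusted p = 0.0468) without the third mutant-labelled library. Nos1, the enzyme that makes nitric oxide in neurons, was at 7.56, 6.62 and 26.3 CPM against 0.584, 0.526 and 0.0452 CPM. The mutant-labelled libraries held 25 counts in all, 29.6-fold lower (19.8 to 46.1), with a log2 difference of -5.17 (SE 0.93, adjusted p = 0.0358). Without the third RNF138fl/fl library, the highest, the Nos1 difference was -4.22 (adjusted p = 0.0246). In RNF138fl/fl, the third CAC library had the highest Nos1 and the lowest Vip of the 3, so these transmitter genes did not follow each other within that group.

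Of the glial genes, Sox10 was at 1.35, 1.41 and 1.99 CPM in RNF138fl/fl CAC and at 0.159, 0.0809 and 0.0452 CPM in CAC labelled RNF138-/-. With 73 against 6 counts it was 16.6-fold lower (7.27 to 46.7), and the log2 difference was -4.05 (SE 0.47, adjusted p = 0.0212). Gfap was at 0.676, 2.07 and 6.72 CPM against 0.425, 0.283 and 0.316 CPM, and S100b at 1.04, 1.03 and 3.12 CPM against 0.212, 0.485 and 0.271 CPM. Neither was called: the log2 differences were -3.23 (SE 0.86, adjusted p = 0.0661) and -2.39 (SE 0.61, adjusted p = 0.0610). The third RNF138fl/fl library was the highest of its group in all 3 glial members, and without it the differences were -3.85 for Sox10, -2.06 for Gfap and -1.67 for S100b.

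Of the neuronal genes, Elavl4 was at 2.21, 2.07 and 5.49 CPM in RNF138fl/fl CAC and at 0.212, 0.162 and 0.271 CPM in CAC labelled RNF138-/-. It was 13.5-fold lower (7.75 to 25.2), with a log2 difference of -3.92 (SE 0.55, adjusted p = 0.0272). Uchl1 was at 8.30, 7.23 and 21.4 CPM against 1.86, 1.98 and 4.88 CPM, a log2 difference of -2.13 (SE 0.59) that was not called (adjusted p = 0.0701). Without the third RNF138fl/fl library, again the highest for both, the differences were -3.31 for Elavl4, still called (adjusted p = 0.0100), and -1.44 for Uchl1 (adjusted p = 0.102). Its difference was the smallest of the 7 members that lay lower without overlap, with 192 counts left in the 3 mutant-labelled libraries. Uchl1 shares 295 exonic bases with its antisense gene Uchl1os and 12.6% of its 50-base windows with other transcripts, and Nos1 shares 268 bases with the antisense gene Gm26995. The strand setting of the counting is not given in the sources used here, so reads of such pairs cannot be told apart.

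Ret stood aside from the other members. It was at 28.8, 25.5 and 10.1 CPM in RNF138fl/fl CAC and at 47.3, 22.8 and 14.0 CPM in CAC labelled RNF138-/-, with overlapping groups. The log2 difference was 0.33 (SE 0.53, adjusted p = 0.678), and its 95% interval ran from -0.94 to 1.61, which includes a 2-fold higher level. The third RNF138fl/fl library, the highest for 6 of the other members, was the lowest of the 6 CAC libraries for Ret.

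**Figure D2:**
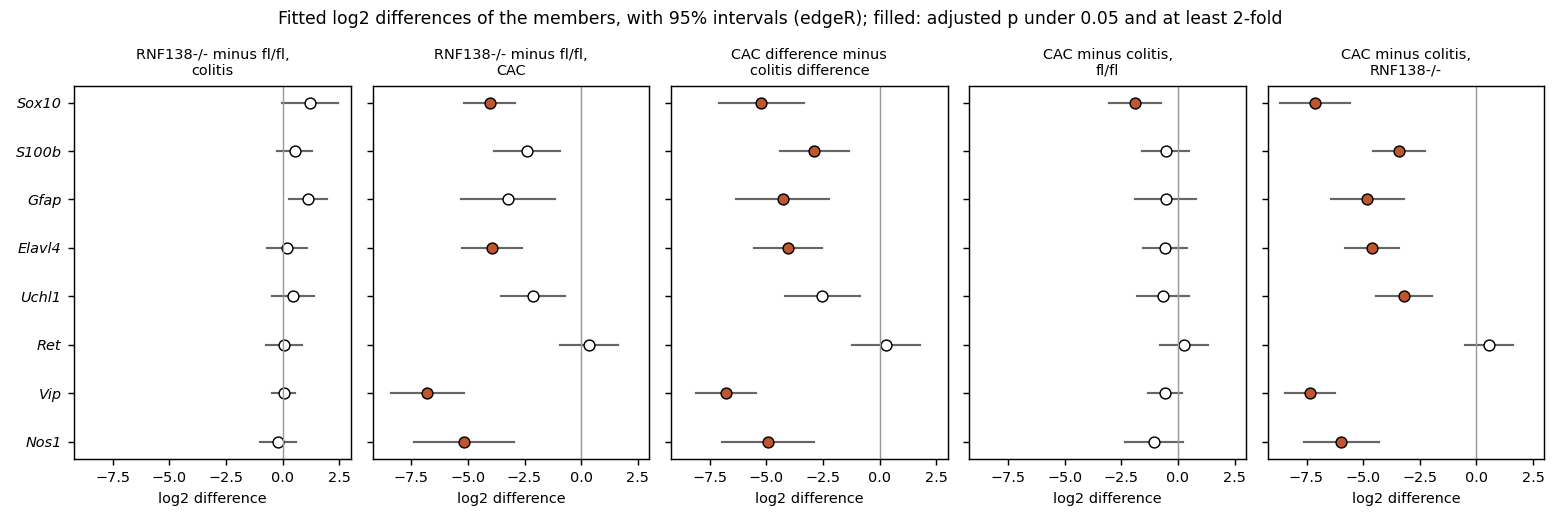
Log2 difference of each gene between libraries labelled RNF138-/- and RNF138fl/fl in colitis and in CAC, and the CAC difference minus the colitis difference. The last panels show CAC minus colitis within each genotype. Points are edgeR estimates, bars 95% confidence intervals, filled points called genes. In CAC the interval of Ret includes 0, and those of the other 7 genes lie below it, down to a Vip estimate of -6.79.

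These calls depended on the mutant-labelled libraries of the CAC group. Without the first of them 0 members were called (adjusted p of the 4 genes 0.0517 to 0.104), without the second 0 (0.114 to 0.149), and without the third 1, Vip, with 0.0545 to 0.0803 for the others. Those 3 fits called 0, 0 and 109 genes of the whole table. Without the first RNF138fl/fl library Nos1 was not called (0.0550). In each of these fits the same 7 members, all but Ret, had an unadjusted p under 0.05 and at least a 2-fold difference. Over all alternatives, adjusted p ran up to 0.183 for Vip, 0.273 for Sox10, 0.309 for Elavl4 and 0.381 for Nos1, the highest values coming from a fit with the level of Y-linked genes as a covariate, and no estimate of the 7 members turned direction.

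Markers of other cells differed in the same CAC comparison. Of 12 smooth muscle genes 11 were called lower in CAC labelled RNF138-/-. All 12 lay lower without overlap, and the median log2 difference was -3.85. Des, the desmin gene, had -6.54 (adjusted p = 0.0317) and Myh11, the smooth muscle myosin heavy chain gene, -5.03 (adjusted p = 0.0193). Without the third RNF138fl/fl library they had -5.63 and -4.33, and without the third CAC library labelled RNF138-/- Des had -7.80. The number of muscle genes called was 0 without the first or the second library labelled RNF138-/- and 3 without the third. No smooth muscle gene was at 0 in the mutant-labelled libraries. Called lower were 2 of 4 genes of interstitial cells of Cajal, 4 of 7 lymphoid genes and 3 of 3 adipocyte genes tested. So were 5 of 9 enteroendocrine genes (8 with an unadjusted p under 0.05) and 1 of 8 colon epithelium genes (6 with an unadjusted p under 0.05). Of 4 skeletal muscle genes tested 1 was called lower (3 with an unadjusted p under 0.05, median -2.84). By contrast, edgeR called 0 of 8 fibroblast and 0 of 6 endothelial genes, with 0 at an unadjusted p under 0.05. It called 0 of 6 myeloid genes, with 1 higher at an unadjusted p under 0.05. The summed lymphoid level was 1470 to 2217 CPM in RNF138fl/fl and 127 to 218 CPM in CAC labelled RNF138-/-, the enteroendocrine sum 229 to 408 against 25.6 to 91.5 CPM, the adipocyte sum 27.6 to 81.1 against 0.687 to 1.38 CPM, the colon epithelium sum 6682 to 21595 against 4713 to 5674 CPM, and the fibroblast sum 1106 to 1789 against 972 to 1797 CPM. The log2 differences of the members lay on both sides of that of Myh11, with Vip (-6.79) and Nos1 (-5.17) below it and the other 6 above. The part of these cell types in the fall of the 4 members was not tested.

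In the lists of related genes, the calls between genotypes in CAC were of lower levels. Among the other glial genes 2 of 11 tested were called lower in CAC labelled RNF138-/-, beside 4.83% of all genes. They were the cadherin gene Cdh19 (log2 difference -5.69, adjusted p = 0.0285) and Scn7a, which codes for a sodium channel protein (-1.51, adjusted p = 0.0495). Cdh19 had -5.05 without the third RNF138fl/fl library and -6.84 without the third CAC library labelled RNF138-/-. Of the 11 genes 8 had a lower estimate, and their median was -0.71. Sox10, a member of the same cell type, had -4.05.

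Among the other neuronal genes 8 of 20 tested were called lower, 18 had a lower estimate, and the median was -2.30. Chrna3, a nicotinic receptor subunit of autonomic neurons, had 0 counts in all 3 CAC libraries labelled RNF138-/- against 193 counts in RNF138fl/fl. Against a floor of 3 counts over the group it was at least 87.8-fold lower, or at least 52.5-fold without the third RNF138fl/fl library. Prph, the neuronal filament protein peripherin, had a log2 difference of -5.90 (adjusted p = 0.0171), Stmn3 of -4.89 (0.0326; -3.92 without the third RNF138fl/fl library) and Hand2, a transcription factor needed for enteric neurons, of -3.53 (0.0315). The transmitter list had 7 of 17 called lower, 15 with a lower estimate and a median of -2.39. In the other direction, Gad1 and Gad2, which code for the enzymes that make GABA, had differences of 2.32 (adjusted p = 0.0635) and 1.41 (0.0572) with no overlap of the groups. Gad1 was called higher without the third RNF138fl/fl library (1.92, adjusted p = 0.0443). Dbh, the enzyme that makes noradrenaline, had 0 against 94 counts, at least 42.8-fold lower. The peptide genes Sst (-8.29, adjusted p = 0.0310), Grp (-6.35, 0.0430), Nmu (-5.85, 0.0495) and Gal (-5.52, 0.0272) fell too. The third RNF138fl/fl library was the highest for each of these 4 genes, with Sst at 4.12, 6.57 and 36.8 CPM over that group, Grp at 1.29, 3.01 and 15.0 CPM, Nmu at 0.676, 1.503 and 9.36 CPM and Gal at 3.32, 2.82 and 10.7 CPM. Without it the differences were -6.72 for Sst, -4.77 for Grp, -4.08 for Nmu and -4.63 for Gal, each still called. Sst is also made by enteroendocrine cells. List genes near 0 in CAC labelled RNF138-/- passed the filter on low counts only through RNF138fl/fl, as 6 of the members did. Examples are Chrna3 and Dbh with 0 counts, and Cdh19, Prph and Stmn3 at means of 0.0629, 0.182 and 0.138 CPM. The number of calls in these lists depended on single libraries. Without the first or the second CAC library labelled RNF138-/-, 0 genes of the 5 lists were called, and without the third 0 glial, 2 neuronal, 1 transmitter, 0 GDNF-list and 0 response genes. Without the first RNF138fl/fl library the counts in that order were 0, 1, 3, 1 and 1, and without the second or the third 1 glial gene was called.

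In the pathway of RET, the ligand gene Gdnf fell by 3.59 on the log2 scale (adjusted p = 0.0285), and the coreceptor genes Gfra1 and Gfra2 had log2 differences of -3.49 (0.0437) and -2.04 (0.0355). Without the third RNF138fl/fl library that of Gfra1 was -2.75, still called. They made up the 3 genes called of 9 tested, with a median of -1.72, while the receptor gene Ret itself was not called. Of 8 genes that respond to VIP and nitric oxide 6 were called lower, all 8 had a lower estimate, and the median was -1.88. The 5 with the largest differences were the PACAP receptor gene Adcyap1r1 (-4.55, adjusted p = 0.0310), the cyclic GMP kinase gene Prkg1 (-2.51, 0.0408) and its substrate gene Mrvi1 (-2.62, 0.0341), and the guanylate cyclase subunit genes Gucy1a1 (-2.42, 0.0272) and Gucy1b1 (-1.34, 0.0474). Without the third RNF138fl/fl library Adcyap1r1 had -3.96, and without the third CAC library labelled RNF138-/- it had -5.46. Several of this list are genes of smooth muscle, and the muscle sums given above moved with them.

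**Figure D3:**
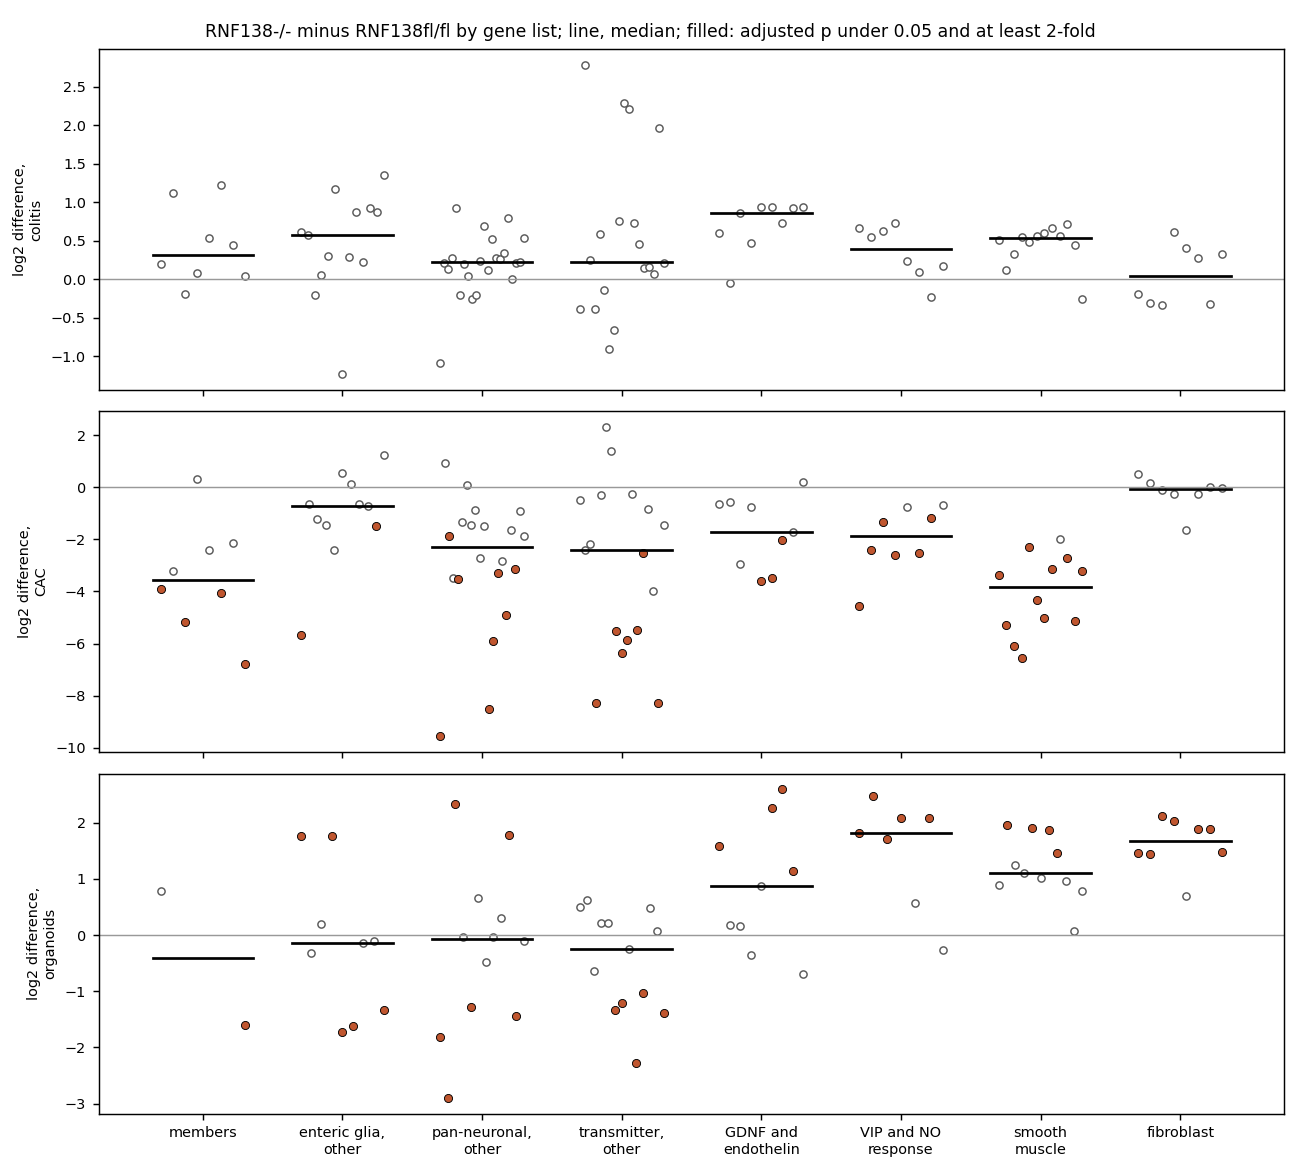
Log2 difference between libraries labelled RNF138-/- and RNF138fl/fl for every tested gene of the nervous system and smooth muscle lists, in colitis, CAC and organoids; points are genes, filled where called, and lines list medians. In CAC the medians ran from -0.71 (other glial genes) to -3.85 (smooth muscle), and in colitis from 0.22 to 0.86.

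The next comparison set CAC against colitis within a genotype. These fits and the difference between them used the same 12 tissue libraries as the comparisons above and so are not independent of them. In RNF138fl/fl, 1 of 8 members was called, Sox10, which fell by 1.90 on the log2 scale (SE 0.52, adjusted p = 0.0312), while 3.04% of all 18843 genes tested were called lower and 8.41% higher. Sox10 and Vip lay lower in CAC without overlap, as 16.2% of all genes did. Vip had a log2 difference of -0.57 (SE 0.35, adjusted p = 0.292) and Nos1 of -1.04 (SE 0.59, adjusted p = 0.249), and the remaining 5 ran from -0.66 (Uchl1) to 0.26 (Ret). The Sox10 call was lost without the first or second RNF138fl/fl library of either model and with the Y-linked covariate (adjusted p up to 0.141 over the alternatives). Without the third RNF138fl/fl CAC library, the one with the highest muscle sum, 3 members were called lower: Sox10, Gfap and Nos1. Of the squamous epithelium genes, 4 of 4 tested were called higher in CAC in RNF138fl/fl (median 5.38), with sums of 1.61 to 2.29 CPM in colitis against 4.07 to 43.2 CPM, and 4 of 4 in the libraries labelled RNF138-/- (median 5.97). Of the adipocyte genes in RNF138fl/fl, 2 of 5 tested were called higher and 5 had an unadjusted p under 0.05 (median 3.91). The part of these cells in the Sox10 difference was not tested.

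In libraries labelled RNF138-/-, 7 of 8 members were called lower in CAC than in colitis, all but Ret. Of all genes 19.6% were called lower and 17.1% higher. All of the 7 but Uchl1 passed the filter on low counts through the other tissue groups and not through CAC labelled RNF138-/-. The libraries of the 7 did not overlap, as for 27.9% of all genes. The log2 differences were -7.34 for Vip (SE 0.51, adjusted p = 9.91e-06), -7.12 for Sox10 (SE 0.70, 4.24e-05), -5.96 for Nos1 (SE 0.76, 0.00015), -4.82 for Gfap (SE 0.74, 0.000393), -4.61 for Elavl4 (SE 0.55, 0.0001), -3.41 for S100b (SE 0.53, 0.000416) and -3.18 for Uchl1 (SE 0.57, 0.000943). The same 7 were called in each of the 17 alternatives. Ret had a log2 difference of 0.56 (SE 0.49, adjusted p = 0.352). Smooth muscle markers moved with this difference too: 12 of 12 fell, with sums of 6341 to 17143 CPM in colitis and 181 to 346 CPM in CAC. So did other markers: 9 of 9 enteroendocrine, 5 of 5 adipocyte, 5 of 7 lymphoid, 5 of 8 colon epithelium, 4 of 5 skeletal muscle and 3 of 4 interstitial cell of Cajal genes tested were called lower, and their part in the fall of the 7 members was not tested. Without the third CAC library labelled RNF138-/- the differences were -8.10 for Vip and -3.77 for Uchl1.

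The lists followed in the same 2 comparisons. Of all genes, 3.04% were called lower and 8.41% higher in RNF138fl/fl, and 19.6% and 17.1% in libraries labelled RNF138-/-. In RNF138fl/fl, 2 of 14 other glial genes were called lower (Foxd3, a transcription factor, -2.46, and Gfra3, a coreceptor, -2.30) and 1 higher. Also called lower were Syp (-1.53) of 23 neuronal genes and Ache (-1.63) and Cck (-2.71) of 22 transmitter genes. So were Nrtn (-2.71) of 9 genes of the GDNF list and Prkg1 (-1.39) of 8 response genes. Of the 23 neuronal genes 20 had a lower estimate, called or not, and the median was -1.11. An unadjusted edgeR p under 0.05 with a lower level was found for 11 of them, beside 13% of all genes. In libraries labelled RNF138-/-, 10 glial, 19 neuronal, 15 transmitter, 8 GDNF-list and 7 response genes were called lower, and 2, 1, 2, 0 and 0 higher. Of the glial genes Gpm6b rose by 1.07 (adjusted p = 0.00636), and the transmitter genes that rose were Gad1, by 4.35 (0.000274), and Gad2, by 2.10 (0.00164), the enzymes that make GABA. Elavl2, an ELAV gene like Elavl4, was the neuronal gene that rose, by 2.28 (0.0154).

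Whether the genotype difference was of another size in CAC than in colitis was tested as the difference of the 2 differences. It was called for 6 of 8 members, all negative, beside 7.23% of all genes negative and 1.1% positive. Each of the 6 passed the filter on low counts through the other tissue groups and not through CAC labelled RNF138-/-. The values were -6.77 for Vip (SE 0.61, adjusted p = 0.00039), -5.21 for Sox10 (SE 0.86, 0.00645), -4.92 for Nos1 (SE 0.93, 0.0116), -4.28 for Gfap (SE 0.94, 0.0207), -4.05 for Elavl4 (SE 0.69, 0.00749) and -2.87 for S100b (SE 0.70, 0.0293). Uchl1 had -2.52 (SE 0.75) and was not called (adjusted p = 0.0591), and Ret had 0.29 (SE 0.69, adjusted p = 0.821). Across the alternatives Vip, Sox10, Nos1 and Elavl4 were called in each of 17, Gfap in 13 and S100b in 11, and Uchl1 was called in 6. Of the lists, 5 of 14 glial, 9 of 23 neuronal, 12 of 22 transmitter, 4 of 9 GDNF-list and 5 of 8 response genes had negative calls, and 2 transmitter genes, Gad1 and Gad2, positive ones. Of the 12 smooth muscle genes 12 had negative calls, as did 5 of 5 adipocyte, 5 of 9 enteroendocrine, 5 of 7 lymphoid, 3 of 8 colon epithelium, 2 of 5 skeletal muscle and 1 of 4 interstitial cell of Cajal genes tested, and their part was not tested. Without the third RNF138fl/fl CAC library the values were -4.06 for Nos1, -3.20 for Gfap and -2.23 for S100b, each still called, and without the third CAC library labelled RNF138-/- Vip had -7.53.

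The order of the groups by mean level differed between the members. From the highest mean, Sox10 ran from colitis labelled RNF138-/- (13.8 ± 7.21 CPM, n = 3) over RNF138fl/fl colitis (5.88 ± 3.02) and RNF138fl/fl CAC (1.58 ± 0.351) to CAC labelled RNF138-/- (0.0951 ± 0.0584). The 2 colitis groups overlapped, and each later step was free of overlap. For Vip the order was the same, with 32.8 ± 6.64, 32.0 ± 5.85, 21.5 ± 3.20 and 0.188 ± 0.181 CPM, again with overlap between the colitis groups only. For Gfap the colitis groups stood apart (9.78 ± 5.05 and 4.49 ± 0.306 CPM) and RNF138fl/fl colitis overlapped with RNF138fl/fl CAC (3.15 ± 3.16). S100b, Elavl4, Uchl1 and Nos1 overlapped over the first 3 tissue groups. For Ret every neighbouring pair of the 6 groups overlapped, from 28.0 ± 17.3 CPM in CAC labelled RNF138-/- to 7.74 ± 2.78 CPM in RNF138fl/fl organoids.

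The organoid libraries were set against CAC tissue of the same genotype label. Sox10 had 0 counts in all 3 RNF138fl/fl organoid libraries and 2 counts in those labelled RNF138-/-. Vip had 1 count in each group of 3 libraries, and Nos1 3 and 6 counts. Cdh19, a cadherin gene of glia, had 0 counts in all 6 organoid libraries. It was 1 of 15 other glial genes, of which 1 had 0 counts throughout RNF138fl/fl organoids and 3 throughout those labelled RNF138-/-. The 15 genes summed to 133 to 199 CPM and to 232 to 275 CPM in these groups, with Gpm6b at means of 26.9 and 93.9 CPM. The levels of Uchl1, Ret and S100b in organoids were thus measured beside Sox10, Vip, Nos1 and Cdh19 at or near 0, and beside other glial genes that were read. Against RNF138fl/fl CAC tissue, 5 of the 8 members (Sox10, Gfap, Elavl4, Vip and Nos1) lay lower in RNF138fl/fl organoids without overlap, as did 25.9% of all 31603 genes with a count in these groups. Sox10 was at least 22.6-fold lower (floor of 3 counts over the group). Vip was 983-fold lower, with a counting interval of 176 to 38865 that rests on 1 count. Nos1 was 168-fold lower (57.1 to 817), Gfap 58.5-fold (15.9 to 489) and Elavl4 11.7-fold (6.32 to 23.9). The third RNF138fl/fl CAC library held 278 of 542 Nos1, 71 of 126 Gfap and 58 of 138 Elavl4 counts, so these folds lean on it. Among libraries labelled RNF138-/-, where the CAC levels were low already, 0 of 8 members lay lower in organoids without overlap, against 32% of 31910 genes (2 members when CPM were scaled by total counts alone), and Uchl1 lay higher (5.86 ± 0.906 against 2.91 ± 1.71 CPM, n = 3). Exact permutation p-values for single genes cannot go below 0.1 here.

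Between the organoid groups, 2 of 8 members had enough counts to be tested, Uchl1 and Ret. Uchl1 was at 17.3, 19.3 and 15.3 CPM in RNF138fl/fl organoids and at 4.98, 5.82 and 6.79 CPM in organoids labelled RNF138-/-. The groups stood apart, and Uchl1 fell by 1.60 on the log2 scale (SE 0.18, adjusted p = 0.00149), beside 7.04% of all 15294 genes called lower and 7.94% higher. Ret was at 10.9, 6.14 and 6.13 against 14.8, 10.7 and 16.0 CPM, with the highest of the former just above the lowest of the latter, and its log2 difference of 0.79 (SE 0.27) was not called (adjusted p = 0.0513). Without the first RNF138fl/fl organoid library Ret was called higher, and without the third S100b entered the test and was called lower. S100b was at 1.15, 0.877 and 0.270 CPM against 0.210, 0.476 and 0.224 CPM, 35 against 15 counts. Gfap gave 2 counts against 11, a ratio of 5.28 with a counting interval of 1.15 to 49.1, and Elavl4 gave 11 counts against 8. Vip, Nos1 and Sox10 were too low for a difference to be detectable at this depth.

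The lists split in the organoids. Other glial genes had 2 higher and 3 lower calls among 9 tested: Gpm6b rose by 1.76 (adjusted p = 0.000414) and Col28a1 by 1.76 (0.0065), while Sox2 fell by 1.33 (0.0125) and Ngfr by 1.62 (0.0325). Neuronal genes had 2 higher (Hand2 by 2.33 and Syn1 by 1.79) and 4 lower calls among 12, the growth cone gene Gap43 by the widest margin (-2.90, adjusted p = 0.00514), then Elavl3 (-1.82), Syt1 (-1.44) and Map2 (-1.27). Of 13 transmitter genes 5 were called lower, the peptide genes Npy (-2.28), Tac1 (-1.39) and Penk (-1.04) and the GABA enzyme genes Gad1 (-1.34) and Gad2 (-1.21). The GDNF list had 4 higher calls among 9, the receptor genes Gfra2 (2.598), Gfra1 (2.26) and Gfra4 (1.14) and the ligand gene Artn (1.59). The response list had 5 higher calls among 7, Gucy1a1 (2.47), Prkg1 (2.08), Mrvi1 (2.08), Adcyap1r1 (1.82) and Gucy1b1 (1.71). Of the genes that rose here, Hand2, Gfra1, Gfra2 and these 5 response genes were called lower in CAC labelled RNF138-/-. Fibroblast genes (7 of 8 higher), smooth muscle genes (4 of 11 higher), myeloid genes (4 of 6 higher, with sums of 23.0 to 32.6 against 101 to 154 CPM), endothelial genes (2 of 5 higher) and the Y-linked genes (4 of 4 higher) moved with the organoid groups, as did enteroendocrine genes (2 of 6 lower, median -1.26), lymphoid genes (1 of 2 lower), colon epithelium genes (1 of 8 lower) and genes of interstitial cells of Cajal (1 of 4 higher), and their part in these results was not tested.

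How closely the members followed each other depended on the libraries included. Taking the mean of the 8 standardized log2 levels as the profile, Pearson's r over the 12 tissue libraries ran from 0.921 (Vip) to 0.974 (Nos1) for the members other than Ret, each itself part of the profile, and was -0.235 for Ret. Without the 3 CAC libraries labelled RNF138-/-, r was 0.564 for Vip and 0.736 for Elavl4, and 0.851 to 0.930 for the other 5. Within the 6 colitis libraries it was 0.117 for Vip, 0.378 for Elavl4, 0.609 to 0.906 for the other 5 and 0.756 for Ret. These are descriptions, since the libraries share groups, depth and muscle content. Among the 10 genes outside the member list with the highest r of 15990 genes with a mean of at least 1 CPM were Slc8a2 (0.994), Hand1 (0.991), Prph (0.989), Wscd2 (0.988), Sncg (0.986), Tns1 (0.985), Rbpms2 (0.985), Ndn (0.985) and Sntg2 (0.984). Within the 6 colitis libraries alone the r of these genes ran from 0.825 (Sntg2) to 0.921 (Slc8a2). Pairs of members loosened there: Elavl4 and Sox10 had r = 0.816 over the 12 libraries and -0.302 over the 6 colitis libraries, and Vip and Nos1 0.932 and -0.231. Ret and Uchl1 went the other way, with -0.388 over the 12 and 0.955 over the 6.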

How the data were processed

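RNA-seq of 18 libraries was used, 12 of colon tissue and 6 of organoids. The submitters' processing notes name mm10, STAR 2.6.1d, HTSeq 0.11.2 and DESeq2 without their roles, while the study's methods name mm10 and transcripts built with Cufflinks on GENCODE M8, so how the authors made the table is not settled. The deposited values are whole-number read counts for 36757 genes. A second deposited table, holding the authors' own fold changes and p-values, was not used. Of the genes, 36700 (99.8%) matched GENCODE M21 by identifier, which gave positions and exon lengths.

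Each comparison was fitted in edgeR 4.0.16 (R 4.3.3) by the quasi-likelihood test with TMM scaling and filterByExpr (minimum count 10), within the 2 groups for genotype and over the 12 tissue libraries for the model comparisons. P-values were adjusted by Benjamini-Hochberg over all genes tested, and a gene was called at an adjusted p under 0.05 with at least a 2-fold difference. The standard error was taken from the estimate and its F statistic. CPM used TMM over all 18 libraries. Intervals of count ratios (95%) and the floor of 3 counts cover counting error only.

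The 8 members and the gene lists were chosen with earlier results of these data known. In each nervous system list, at most 5 called genes per direction were named, those of a group mean of 1 CPM or more with the largest differences, except for some genes that are not reported here. On simulated data with 200 genes changed 4-fold, the fit recovered 156 in colitis, 116 in CAC and 183 in organoids, with 0 in the wrong direction. Same-numbered colitis libraries of the 2 genotypes deviated together (r = 0.251, 0.108 and 0.521), so the numbers were taken as pairs there, although differently numbered ones reached 0.274 (first RNF138fl/fl with second RNF138-/-) and 0.227 (second with first); with the replicate block 0 members and 89 genes in all were called in colitis, against 15 genes without it. Alternatives were DESeq2 1.42.0, another normalization, no filter, 1 fit over all libraries, a Y-linked covariate, the replicate block and leaving out each library.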

Additional observations from a re-analysis of the deposited data

Results flagged for a closer look

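The genotype difference was of another size in CAC than in colitis for 6 members. This was a test of the difference itself over the 12 tissue libraries (edgeR, adjusted over 18843 genes). Of all genes tested, 7.23% had negative calls and 1.1% positive ones. Each of the 6 members passed the filter on low counts through the other tissue groups and not through CAC labelled RNF138-/-. The log2 difference in CAC minus that in colitis was -6.77 for Vip, -5.21 for Sox10, -4.92 for Nos1, -4.28 for Gfap, -4.05 for Elavl4 and -2.87 for S100b. In CAC, all libraries labelled RNF138-/- lay below all RNF138fl/fl libraries for each of the 6, as for 20.8% of genes tested there. In colitis the groups overlapped for 5 of the 6. Gfap lay higher without overlap in colitis labelled RNF138-/-, as did 8.86% of genes tested there. Genes of other cells were called in the same direction, 12 of 12 for smooth muscle, 5 of 5 for adipocytes and 5 of 9 for enteroendocrine cells. So were 5 of 7 for lymphoid cells, 3 of 8 for colon epithelium, 2 of 5 for skeletal muscle and 1 of 4 for interstitial cells of Cajal. The part of these cells in the differences was not tested.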

How the results depend on the processing

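In CAC, 4 members were called between genotypes. The count was 7 with no filter on low counts, 7 with DESeq2, 7 with 1 fit over all 18 libraries and 0 with the Y-linked covariate (5 before adjustment), and ran from 0 to 4 when 1 library was left out. With the replicate block 4 were called, Uchl1 in place of Nos1; the numbers of CAC and organoid libraries did not pair the samples (r of same-numbered CAC libraries 0.0330, 0.227 and 0.0774). The block changed no member count in the other comparisons. In organoids the count ran from 1 to 2 without 1 library. CAC against colitis in RNF138fl/fl gave 1, 0 with the Y-linked covariate, and 0 to 3 without 1 library. Members lower in organoids than in CAC among libraries labelled RNF138-/- numbered 0, 2 with CPM by total counts, and 0 to 2 without 1 library.

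Ret turned direction most often: its log2 difference in colitis was -0.0113 with the replicate block and -0.0497 with the Y-linked covariate, and its model by genotype difference -0.0368 with the latter. Without 1 library, Ret ran from -0.35 to 0.36 in colitis, -0.28 to 0.68 in CAC, -0.0035 to 0.60 and -0.0470 to 0.97 between models in RNF138fl/fl and in libraries labelled RNF138-/-, and -0.31 to 0.70 for the difference of differences. In colitis Vip ran from -0.15 to 0.19, Uchl1 from -0.13 to 0.78 and Nos1 from -0.73 to 0.0203. The cause was not tested.

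Over all genes, 954 were called in CAC, against 1641 with no filter, 2661 with DESeq2, 2834 with 1 fit and 0 with the Y-linked covariate. In colitis 15 were called, against 354 with no filter, 326 with DESeq2 and 186 with the Y-linked covariate. With no minimum fold change, 5436 were called in organoids, against 2292. The difference of differences had 1571 calls, 2511 with DESeq2 and 967 with the Y-linked covariate. Sox10, Vip and Nos1 had at most 25 counts over the 3 CAC libraries labelled RNF138-/-, and at most 6 in either organoid group, so lower levels there were not measurable.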
